A study of Sus scrofa with 12 samples.

Results

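The peaks described here are the m6A peaks of pig intestinal epithelial cells that lie wholly in coding sequence. A peak was taken when the deposited peak table listed it under 1 gene that is not a long noncoding RNA, with a span of at most 10000 bp and coding sequence as its only annotated position. Of 25055 distinct peaks in the table, 5185 (20.7%) met the rule, and they lay on 2976 genes. The other annotated positions used for comparison were peaks at the stop codon (5186), at the start codon (3983), wholly in the 3' UTR (3797) and wholly in the 5' UTR (1394).

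N6-methyladenosine (m6A) is a methyl mark on adenosines of messenger RNA. It is written by a complex around METTL3 and METTL14, removed by FTO and ALKBH5, and bound by YTH proteins such as YTHDF2, which shortens the life of its targets. The mark is known to gather around stop codons and in long internal exons, so that coding-sequence peaks often sit in unusually long coding exons.

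The cells were IPEC-J2, an established line from the jejunal epithelium of newborn piglets, with wild-type genotype in all libraries. All cells grew in DMEM/F12 medium with fetal bovine serum, penicillin and streptomycin, and all were collected at 24 h. The control group (CON) received 0 µM of an agent the labels call OAA, and the treated group (OAA) received 25 µM. RNA of 3 numbered replicates per treatment was fragmented, and 1 part was kept as input while another was enriched with an m6A antibody, giving 12 libraries in 4 groups of 3, here called labelled input and labelled IP after their titles. Whether the numbered replicates are separate cultures is not stated, so the p-values reflect only how far these samples differ, and that spread may be technical. The line stands for 1 cell population grown in culture and lacks the other cells of the gut wall.

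Coding-sequence peaks took 17.2 to 17.8% of the peak reads of the libraries labelled input (2.93 to 4.02 M reads) and 18.2 to 18.9% of those labelled IP (0.688 to 0.844 M reads). The median peak held 147 to 204 reads per library labelled input and 50 to 63 per library labelled IP. The labelled IP side thus rests on fewer reads. In CON, 5142 of the 5185 peaks (99.2%) held more reads in the labelled input libraries, and 48 held none in the labelled IP libraries. The gene expression table (in FPKM, which scales fragments by gene length and depth) carries the codes of the libraries labelled IP. Of 9 epithelial markers in that table, 8 reached 1 FPKM, led by KRT8 (396 FPKM) and CLDN4 (240 FPKM), while GRHL2 was listed at 0. The enterocyte enzyme SI stood at 12.8 FPKM and VIL1 at 0.246 FPKM. Of 6 fibroblast markers none reached 1 FPKM, and PTPRC, a defining marker of leukocytes, was listed at 0, although LYZ was at 27.4 and CD79A at 6.22 FPKM. All 3 endothelial markers measured were above 1 FPKM, with CDH5 at 3.78 FPKM.

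The signal of a peak is given below as the peak ratio, the log2 of labelled input over labelled IP after scaling each library by TMM, a method that sets the typical peak near 0. This is the direction of the log2 ratios in the authors' deposited table. Read as m6A enrichment, a high ratio holds only if the titles of the 2 parts were exchanged, which the files do not settle, so the text states which label was higher. Levels are CPM, the counts of a library divided by its depth after the same scaling, and a peak is called when the Benjamini-Hochberg adjusted p of edgeR's quasi-likelihood test over all 24145 tested peaks is under 0.05.

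The coding-sequence peaks were mostly short, and most genes held a single one. Their median span was 300 bp (quartiles 175 and 675 bp, range 50 to 9992 bp), and 1005 (19.4%) spanned over 1000 bp, which in genomic coordinates can include introns. Of the 2976 genes, 1902 held 1 such peak, 577 held 2, 369 held 3 or 4, and 128 held 5 or more, the last group carrying 910 peaks. A stop codon or 3' UTR peak was present on 1865 of these genes (62.7%), and 725 (24.4%) held no other mRNA peak listed under 1 gene within the span limit. Along the gene, 63.6% of the peaks lay past the midpoint, with 15.8% in the last 10% of the gene's length and 7.81% in the first 10%. The host genes had a median of 7.65 FPKM, against 12.2 FPKM for the 5760 genes whose peaks all lay at other positions.

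Of the 5185 peaks, 5072 passed the filter on low counts. The other 113 had a median of 90 reads summed over the 12 libraries. In CON, 1651 of the tested coding-sequence peaks were called higher in labelled input (32.6%, against 33.9% of all tested peaks) and 1830 lower (36.1%, against 34.2%). In either direction 68.6% were called, near the 68.1% of all peaks. Their median log2 ratio was -0.056, with quartiles at -0.95 and 0.90. With libraries scaled to their size only, the median over all peaks shifted by -0.30 and there were 1271 higher and 2225 lower coding-sequence peaks, so that 36.4% of the calls were higher in place of 47.4%. With RLE size factors the coding-sequence median turned to 0.031, with 1761 higher and 1728 lower, and DESeq2 gave a median of 0.033 with 1745 higher and 1730 lower. The split into higher and lower therefore depends on where 0 is set, while differences between peaks do not.

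Over all spans, the median of coding-sequence peaks stood below that of stop codon peaks and above that of 3' UTR peaks, an order that was not kept at every span, as given further on. The median log2 ratio in CON was 0.32 for stop codon peaks, of which 46.4% were called higher, and -0.26 for 3' UTR peaks, of which 26.8% were. Start codon peaks had a median of -0.16 and 5' UTR peaks of 0.48. Taking labelled input and labelled IP libraries of the same number together, in the 3 CON replicates the coding-sequence median was lower than that of the stop codon by 0.36, 0.37 and 0.40, and higher than that of the 3' UTR by 0.20, 0.21 and 0.18. In the 3 OAA replicates it was lower than that of the stop codon by 0.39, 0.40 and 0.32, and higher than that of the 3' UTR by 0.15, 0.14 and 0.20. All 6 replicates thus gave the same order, with an SD over the CON replicates of 0.019 for the first difference and 0.015 for the second. Among peaks that reached 5 CPM or more in the higher group the differences were larger, -0.53 and 0.31. The medians themselves were not tested.

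**Figure D1:**
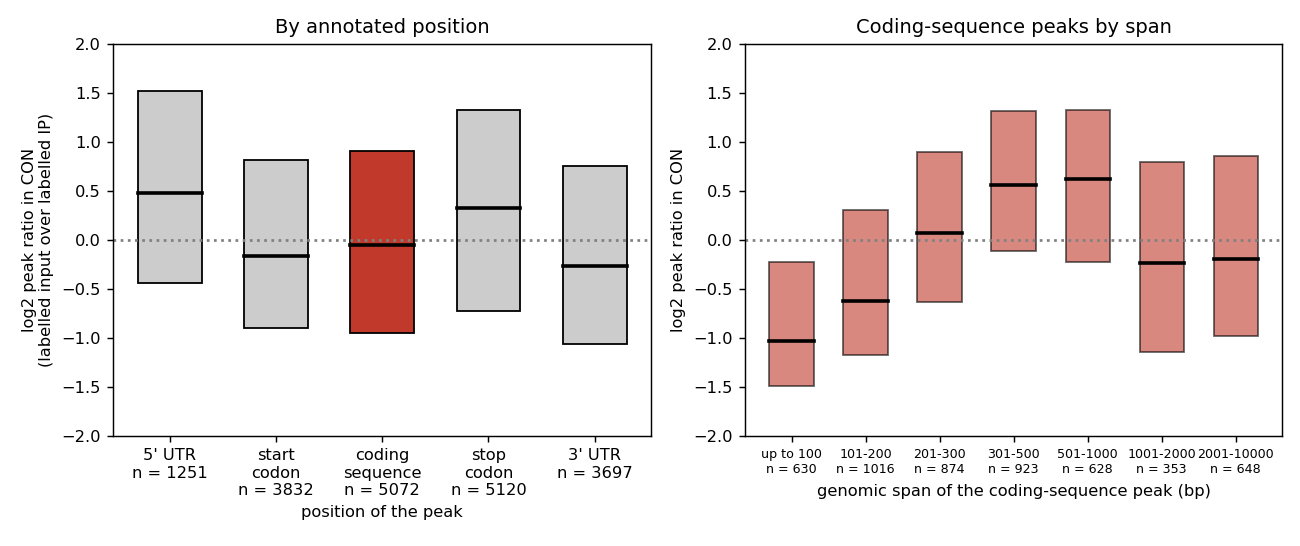
Left, log2 peak ratio in CON by annotated position of the peak (bar, quartiles; line, median), with coding-sequence peaks in red at a median of -0.056 between stop codon (0.32) and 3' UTR peaks (-0.26). Right, the same ratio for coding-sequence peaks by genomic span (bar, quartiles; line, median), with the highest medians between 300 and 1000 bp.

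Span and expression moved with the ratio of coding-sequence peaks. Peaks of up to 100 bp had a median log2 ratio of -1.03 and those above 100 and up to 200 bp of -0.62. The median was 0.074 above 200 and up to 300 bp, 0.56 up to 500 bp and 0.62 up to 1000 bp, and it was lower again up to 2000 bp (-0.24) and above 2000 bp (-0.19). Below 1000 bp, stop codon and 3' UTR peaks also had higher medians at longer spans. Above 1000 bp the medians were -0.22 for coding sequence and -0.40 for the start codon, both below those of 500 to 1000 bp (0.62 and 0.36), while they were 1.01 for the stop codon and 0.91 for the 3' UTR.

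At like span the order of the positions turned. Coding-sequence medians were above those of the stop codon up to 100 bp (-1.03 against -1.15), up to 200 bp (-0.62 against -0.94) and up to 300 bp (0.074 against -0.080), and below them up to 500 bp (0.56 against 0.72), up to 1000 bp (0.62 against 1.25) and beyond. Against the 3' UTR they were above up to 100 bp (-1.09 in the 3' UTR), 200 bp (-0.77), 300 bp (0.044) and 500 bp (0.42), and below up to 1000 bp (1.01) and beyond. None of these differences was tested. The Spearman correlation between span and ratio was 0.236 over the 5072 tested peaks, which share libraries and genes.

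By host gene expression, with the peaks in 4 groups of like size, the median ratio was 0.94 in the group of lowest FPKM (up to 2.64), 0.012 and -0.44 in the middle groups, and -1.01 in the highest (above 14.9 FPKM). The Spearman correlation was -0.522 over the same 5072 peaks. FPKM and the labelled IP reads come from the same libraries, so both sides of this relation share a measurement, and its part in the relation was not tested. Peaks on genes with no other mRNA peak under 1 gene within the span limit had a median ratio of 0.044 (1143 peaks). Those on genes with a stop codon or 3' UTR peak had -0.057 (3307 peaks). Those on genes with further peaks of other positions only had -0.39 (622 peaks).

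Among the 10 peaks of highest ratio, that of LATS2 was the most abundant. LATS2, a kinase of the Hippo growth-control pathway, had a peak of 1125 bp at 1236064 to 1237188 of chromosome 11 (the genome build is not given in the sources used here). Its CON levels were 1384, 1323 and 1304 CPM in labelled input against 111, 118 and 116 CPM in labelled IP, and in OAA they were 1395, 1434 and 1298 CPM against 117, 109 and 96.3 CPM. All labelled input libraries lay more than 10-fold above all labelled IP libraries, with a log2 ratio in CON of 3.54 ± 0.073 (SE, n = 3 per group, edgeR adjusted p = 2.07e-26). NALF2, which encodes a partner of the NALCN sodium leak channel, had 113, 113 and 118 CPM in labelled input against 7.17, 6.20 and 9.91 CPM in labelled IP of CON, at 55631489 to 55632088 of chromosome X. Its log2 ratio was 3.90 ± 0.16. The labels do not overlap at it, which was a condition for choosing the 10 peaks.

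DST, encoding the cytoskeletal linker dystonin, had its highest peak at 29153880 to 29154204 of chromosome 7. That peak measured 35.4, 39.2 and 38.5 CPM in labelled input and 5.15, 2.40 and 3.63 CPM in labelled IP of CON, a log2 ratio of 3.35 ± 0.22. CNST encodes consortin, which takes part in connexin traffic, and its peak at 19122206 to 19122580 of chromosome 10 measured 76.1, 80.2 and 75.3 CPM against 7.39, 9.41 and 8.22 CPM, a ratio of 3.20 ± 0.15. Lack of overlap between the labels was again a condition of the choice. The other genes among the 10 highest were pol (a retroviral-type gene named so in the deposited table, 4.38), the zinc finger repressor ZNF503 (3.78), the atypical cadherin CELSR3 (3.75), the Wnt pathway regulator DACT1 (3.35), the mitochondrial sirtuin SIRT4 (3.32) and the neurotrophin BDNF (3.19). Copies of retroviral-type genes repeat in genomes, so reads of pol and pro-pol may be shared between them. These 6 peaks had from 0 to 2.60 CPM per labelled IP library in CON.

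Of the 10 peaks with the lowest ratios, 8 spanned 50 or 75 bp. ATP5F1A encodes the alpha subunit of mitochondrial ATP synthase, and its peak at 95748828 to 95749081 of chromosome 1 measured 19.6, 10.8 and 15.9 CPM in labelled input against 121, 118 and 126 CPM in labelled IP of CON. Its log2 ratio was -2.97 ± 0.16 (SE, n = 3 per group, edgeR adjusted p = 7e-17), and the 3 libraries of each label stood well apart. WTAP, which holds the m6A writer complex together, had a 50 bp peak at 7624877 to 7624926 of the same chromosome with 3.27, 8.22 and 6.37 CPM against 33.6, 27.8 and 34.3 CPM (-2.44 ± 0.23). COL18A1, a basement membrane collagen, measured 13.3, 12.5 and 14.0 CPM against 60.2, 69.0 and 72.3 CPM (-2.34 ± 0.13) in a 50 bp peak at 207968174 to 207968223 of chromosome 13. By the rule that chose these peaks, the labels do not overlap at them either. The other members of the 10 lowest were the cytoskeletal crosslinker gene GAS2L1 (-2.59), the NF-kB scaffold gene CARD10 (-2.26), pro-pol (-2.22), the riboflavin transporter gene SLC52A1 (-2.22), the splicing factor gene RBM10 (-2.22), the lipid transfer protein gene STARD10 (-2.21) and the lysosomal protease gene CTSF (-2.19). In the authors' deposited table these peaks still carry log2 ratios above 0, for example 0.878 for ATP5F1A in CON against 7.42 for LATS2. That table is not scaled to the typical peak, and its median over coding-sequence peaks was 3.88 in CON, against 3.97 over all peaks, 4.24 at the stop codon and 3.67 in the 3' UTR.

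**Figure D2:**
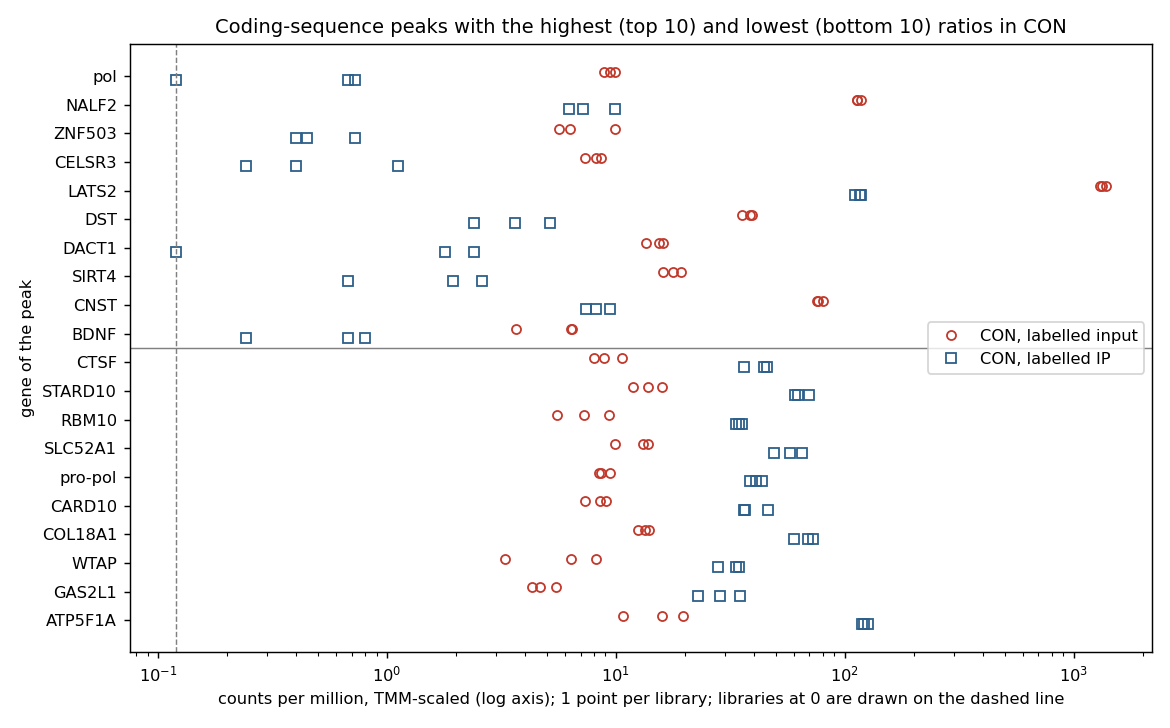
Levels of the 10 coding-sequence peaks with the highest and the 10 with the lowest ratio in CON, 1 point per library, on a log axis of TMM-scaled CPM; red circles are labelled input and blue squares labelled IP. The labels do not overlap in any row by the rule that chose the peaks, LATS2 is the most abundant of them, and libraries at 0 are drawn on the dashed line.

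A few genes carried many coding-sequence peaks. ZFHX3, a zinc finger homeobox regulator, held 22, of which 18 were tested and 10 called higher, with none lower, at a host level of 0.862 FPKM. PCLO, a presynaptic scaffold, held 13 with 6 higher and none lower at 0.690 FPKM. The basic helix-loop-helix gene USF3 also held 13 and the zinc finger gene ZNF318 held 14, each with 4 higher and none lower. Labelled IP reads were few at these peaks. Over the 3 CON libraries, the called peaks held 2 to 49 of them in ZFHX3 and 6 to 24 in PCLO. Under scaling by library size alone, ZFHX3 had 6 higher and 1 lower, and PCLO 4 higher and none lower. USF3 then had 3 higher and 2 lower, and ZNF318 4 higher and 2 lower. DST held 14 peaks, 7 higher and 2 lower, or 6 and 3 under that scaling.

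Within these genes the ratio varied from peak to peak. In DST, the peak 341.7 kb from the gene start had the ratio of 3.35 given above, and its neighbours at 340.7 and 342.2 kb had -0.042 ± 0.52, which was not called, and 1.22 ± 0.31, which was called higher. The next peak, at 342.7 kb, had -0.16 ± 0.40 and was not called. Further downstream, the peak at 386.1 kb was called lower (-0.90 ± 0.16) and the one at 390.1 kb higher (0.73 ± 0.12). In USF3 the highest peak, 44.7 kb from the gene start, reached 2.21 ± 0.18 and the lowest, at 49.3 kb, -0.49 ± 0.29. Over the 1057 genes with 2 or more tested coding-sequence peaks (3219 peaks), the SD of the log2 ratio within a gene was 0.980, against 1.24 over those peaks as a whole. On 289 of these genes (27.3%) peaks were called in both directions.

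**Figure D3:**
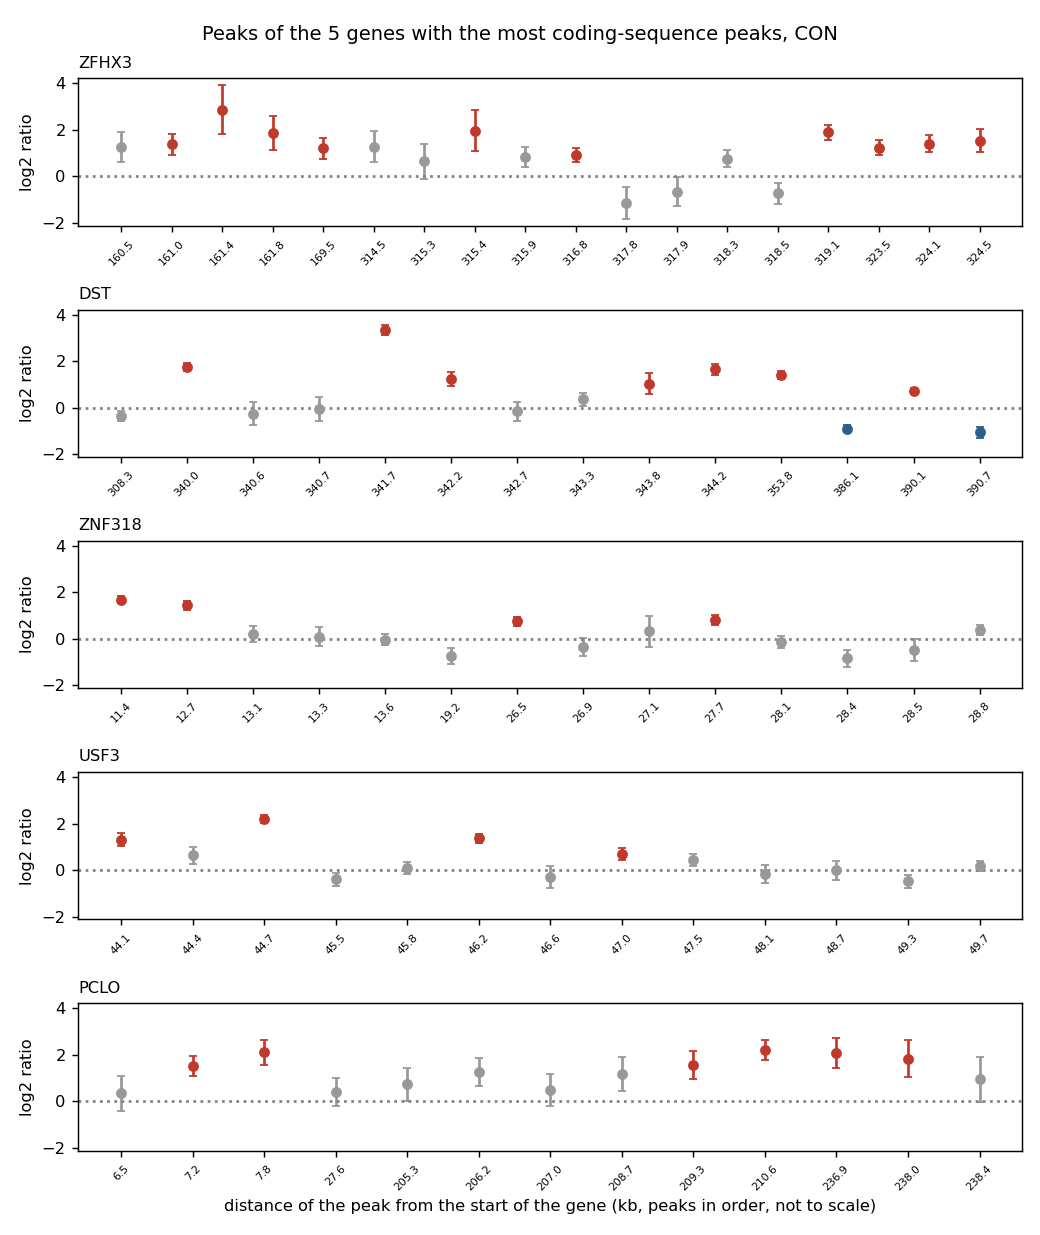
Log2 peak ratio in CON, with its standard error, of each tested coding-sequence peak on the 5 genes that hold the most, in order of distance from the gene start (labels in kb, spacing not to scale). Red points are called higher, blue points lower and grey points are not called; in DST called points of both directions occur, between 3.35 and -1.05.

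On some genes with many coding-sequence peaks most were called in 1 direction. Desmoplakin (DSP), which anchors keratin at desmosomes, held 10 peaks with 8 lower and none higher (median -1.05). The splicing scaffold SRRM2 had 8 of 9 lower and 1 higher, and the Golgi protein gene GOLGB1 8 of 11 lower and 1 higher. The protocadherin gene PCDHGA4 had 8 of its 9 tested peaks higher and none lower (median 1.59), but protocadherin genes of this cluster share exons and reads cannot be assigned to 1 of them with certainty. These 4 genes were picked after their values were seen. DSP (32.8 FPKM) and SRRM2 (33.9 FPKM) fall in the highest expression group, above 14.9 FPKM, whose coding-sequence median was -1.01. GOLGB1 (10.9 FPKM) and PCDHGA4 (5.29 FPKM) fall in the middle groups, with medians of -0.44 and 0.012. No gene was tested against its group.

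Among the genes of the m6A machinery, 11 of 22 held coding-sequence peaks, and 11 of their 20 tested peaks were called higher and 6 lower (median 0.36, or 8 higher and 7 lower when scaled by library size alone). Over all tested peaks, 33.9% were called higher in CON and 34.2% lower with TMM scaling. YTHDF2, the reader that recruits deadenylation to its targets, had a peak of 950 bp at 85722846 to 85723795 of chromosome 6. It measured 517, 554 and 543 CPM in labelled input against 166, 179 and 165 CPM in labelled IP of CON, and 543, 530 and 483 CPM against 150, 152 and 168 CPM in OAA. Its log2 ratio was 1.66 ± 0.073 in CON and 1.73 in OAA, and the labels did not overlap. In CON this was so at 71.8% of tested coding-sequence peaks and 71.9% of all tested peaks. A second YTHDF2 peak at 85722321 to 85722720 had a ratio of 0.68 ± 0.097. The related reader gene YTHDF1 reached 2.10 ± 0.079 and RBM15, which guides the writer complex, 1.90 ± 0.075.

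The core writer subunits were called lower. METTL3, the catalytic subunit, had 10.6, 11.0 and 13.1 CPM in labelled input against 20.8, 27.4 and 21.5 CPM in labelled IP of CON at 77673495 to 77673669 of chromosome 7, a log2 ratio of -1.01 ± 0.20. METTL14, its partner, had 5.23, 6.06 and 8.35 CPM against 15.7, 18.4 and 15.5 CPM at 105029373 to 105029497 of chromosome 8, a ratio of -1.33 ± 0.23. The labels did not overlap at either gene, as at 71.9% of all tested peaks in CON. Both peaks were called lower in CON. The demethylase gene FTO had 1 coding-sequence peak of 43 labelled input and 4 labelled IP reads in CON, too few to be tested, and ALKBH5 and the proteasome gene PSMD3 held none.

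Zinc finger genes of the C2H2 family, named so in the deposited table, held 396 of the 5185 coding-sequence peaks (7.64%, on 195 genes), against 4.90% of stop codon peaks, 3.56% of 3' UTR peaks and 4.29% of all peaks, shares that were not tested. Of their 387 tested coding-sequence peaks, 192 were higher and 58 lower in CON, with a median of 0.63. The background over all tested peaks, here and for the families below, was 33.9% higher and 34.2% lower. The median of the family's peaks was 0.95 at the stop codon, 0.65 at the start codon, 0.077 in the 3' UTR and 0.63 over all its peaks. Homeobox genes of the family the table calls TF_Otx (64 tested peaks, 32 higher and 5 lower, median 0.83) and ZBTB genes (47 tested, 21 higher and 7 lower, median 0.60) were also above the median of all coding-sequence peaks. MYB-type genes (32 tested, 5 higher and 23 lower, median -0.92) and HMG-box genes (35 tested, 9 higher and 18 lower, median -0.67) were below it. These signs held under all 3 scalings.

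Chromatin regulators with long coding exons held 135 coding-sequence peaks on 31 genes, and 42 of the 134 tested were higher and 47 lower (median -0.19), a balance that turns to 49 higher and 43 lower with RLE size factors. Shares over all tested peaks with TMM scaling were 33.9% higher and 34.2% lower, near those of this list. The peak of the nuclear receptor coactivator gene NCOA2 had 766, 790 and 747 CPM in labelled input against 90.9, 108 and 98.6 CPM in labelled IP of CON, a ratio of 2.95 ± 0.077. ASXL1 (1.79 ± 0.10) and NCOA6 (1.78 ± 0.10) were also higher. Giant cytoskeletal and scaffold genes held 114 peaks on 24 genes, with 34 of 112 higher and 54 lower (median -0.33). PLEC, encoding the intermediate filament linker plectin, had the most reads of those named here, with 4445, 4572 and 4788 CPM against 893, 882 and 885 CPM in CON (2.38 ± 0.059), while the actin crosslinker gene FLNA had -1.76 ± 0.080.

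In the lists of cell cycle and DNA replication and of epithelial junctions, more peaks were called lower than higher under all 3 scalings. Over all tested peaks, TMM scaling gave 33.9% higher and 34.2% lower. Median host levels were 26.7 FPKM (cell cycle) and 32.8 FPKM (junctions). Both fall in the highest expression group, above 14.9 FPKM, whose coding-sequence median of -1.01 was below the list medians given here. Neither list was tested against that group. Only 6 of 32 cell cycle and DNA replication genes held coding-sequence peaks, and of their 23 tested peaks 14 were lower and 7 higher (median -0.66). Of these 23, the kinetochore gene CENPF held 10 (6 lower and 3 higher) and MKI67 held 7. MKI67, the proliferation marker, was higher in its peak of highest ratio (0.99 ± 0.069), with 813, 824 and 757 CPM against 404, 410 and 394 CPM, and the replication helicase gene MCM4 (-1.85 ± 0.079) and the mitotic kinase gene AURKB (-1.85 ± 0.13) were lower. Of 31 epithelial junction peaks, 22 were lower and 4 higher (median -0.76), and 10 of them lie on DSP alone. The tight junction gene CLDN4 measured 74.4, 80.4 and 83.4 CPM against 319, 285 and 359 CPM in CON (-2.01 ± 0.083), and the desmosomal cadherin gene DSG2 had -1.67 ± 0.12. MARVELD2, encoding tricellulin of the tight junction, was the opposite, with 323, 276 and 306 CPM against 83.5, 87.7 and 92.8 CPM (1.78 ± 0.081).

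The remaining lists held 2 to 6 tested coding-sequence peaks each. Median host levels were 1009 FPKM for cytosolic ribosomal proteins, 174 FPKM for oxidative phosphorylation and 83.5 FPKM for the proteasome. Those of short-lived regulators (70.0 FPKM) and cholesterol synthesis (20.4 FPKM) were also above 14.9 FPKM, where the coding-sequence median was -1.01. Fatty acid (11.6 FPKM) and endoplasmic reticulum genes (10.6 FPKM) were below that level. No list was tested against these levels or the 33.9% higher and 34.2% lower of all tested peaks. In metabolism and protein turnover, 2 of 59 cytosolic ribosomal protein genes held a peak (RPL10 at -1.58 ± 0.17 and RPL27A at -1.53 ± 0.12, both lower). All 5 tested peaks of nuclear-encoded oxidative phosphorylation (on 5 of 35 genes) were lower, as were 4 of 5 of the 26S proteasome (5 of 32 genes), among them PSMD7 (-2.16 ± 0.087) and ADRM1 (-1.70 ± 0.096), with none higher in either list. Of 5 cholesterol synthesis peaks (4 of 26 genes) 4 were lower, among them the transcription factor gene SREBF2 (-1.48 ± 0.12), and of 5 fatty acid and triglyceride peaks (5 of 47 genes) 3 were lower and 2 higher. In the short-lived regulators (5 of 36 genes), 3 of 6 peaks were lower and 2 higher, with FOSL2 at -2.10 ± 0.11 and KLF6 at 0.68 ± 0.065. Of 3 peaks of endoplasmic reticulum stress and chaperone genes (3 of 26 genes), the sensor kinase gene EIF2AK3 was higher (2.72 ± 0.094) and 2 were lower.

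Both kinds of peak were next compared on the same gene, where the level of the gene is shared. For each of 1864 genes the reads of its coding-sequence peaks were compared with those of its stop codon and 3' UTR peaks across the labels. Coding sequence had the lower ratio in 787 genes (42.2%) and the higher in 449 (24.1%), with a median difference of -0.36 and quartiles of -1.33 and 0.63. These percentages are themselves the background of the comparison, which has no other genes. In OAA 782 genes (42%) were lower and 439 (23.6%) higher, and 711 lower and 393 higher genes were called in both treatments. In the 3 CON replicates the median difference was -0.39, -0.37 and -0.35, and in the 3 OAA replicates -0.37, -0.40 and -0.29. Against stop codon peaks only, 686 were lower and 381 higher of 1565, and against 3' UTR peaks only, 216 were lower and 216 higher of 761. The comparison did not match the peaks on span.

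CDCP1, a transmembrane protein phosphorylated by Src, had the largest difference downward among genes with both kinds of peak above 5 CPM. Its coding-sequence peak measured 5.03, 6.13 and 6.51 CPM in labelled input and 11.9, 14.8 and 14.5 CPM in labelled IP of CON. Its stop codon or 3' UTR peak measured 697, 741 and 757 CPM against 61.8, 65.0 and 64.3 CPM, a difference of ratios of -4.74 ± 0.15 (SE, n = 3 replicates, edgeR adjusted p = 2.58e-16). The 2 regions of this gene thus lay on opposite sides of the typical peak. The same was seen for the mTORC1 inhibitor gene TSC1 (-4.41 ± 0.17), the Sin3 complex gene SAP130 (-4.40 ± 0.17), FAM53B (-4.06 ± 0.14) and the SNARE gene SNAP47 (-4.04 ± 0.33).

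In the other direction, the adaptor gene BCAR3 had 978, 1006 and 1005 CPM against 116, 116 and 126 CPM in its coding-sequence peak of CON. Its peak at the end of the transcript had 5.33, 12.0 and 7.62 CPM against 19.7, 23.0 and 24.9 CPM, a difference of 4.55 ± 0.22 (edgeR adjusted p = 1.83e-13). WAPL, which releases cohesin from chromatin, had a difference of 3.98 ± 0.13, with 877, 977 and 893 CPM against 294, 299 and 266 CPM in coding sequence and 11.4, 15.7 and 11.0 CPM against 60.0, 66.0 and 59.7 CPM at the end of the transcript. Both genes kept the direction in all 6 replicates. SAMD8 (3.89 ± 0.26), PPP1R37 (3.71 ± 0.21) and AKAP1 (3.42 ± 0.14), the mitochondrial anchor of protein kinase A, followed.

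Among the gene lists, chromatin regulators had coding sequence lower in 16 of 24 genes and higher in 2, with NSD2 (-3.37) and SETD5 (-2.94) furthest down and NCOA2 (2.49) and SETD2 (2.00) up. Giant cytoskeletal and scaffold genes had it higher in 10 of 18 and lower in 6, with MACF1 and LAMA3 (both 1.57) highest and CELSR1 (-2.86) lowest. In the m6A machinery it was higher in 5 of 9 and lower in 2, with YTHDF1 at 2.56, YTHDF2 at 1.77 and WTAP at -1.66. Epithelial junction genes had 5 higher and 3 lower of 10, with PKP4 at 2.65 and CLDN4 at -3.48. The shares over all 1864 genes were 42.2% lower and 24.1% higher. The lists were tested neither against these shares nor against each other.

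**Figure D4:**
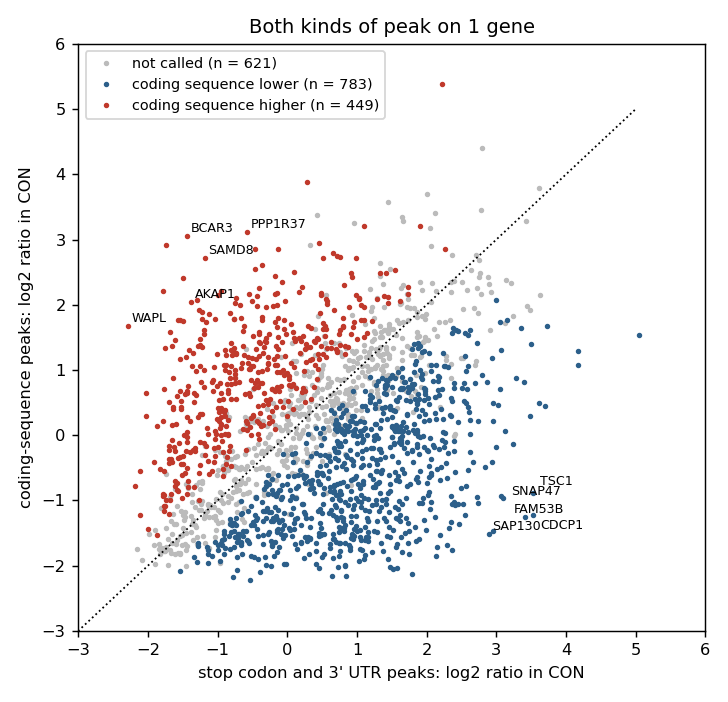
Log2 ratio in CON of the coding-sequence peaks of a gene (vertical) against that of its stop codon and 3' UTR peaks (horizontal), 1 point per gene, with the line of equality dotted and the 10 named genes labelled. Genes called lower in coding sequence (blue) lie below the line and outnumber those called higher (red), and genes with a region at 0 reads in a label have no ratio and are not drawn.

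The question of the treatment is whether OAA changed m6A at these peaks. The ratios of coding-sequence peaks in OAA were close to those in CON, with 1651 higher (32.6%, against 34.1% of all peaks) and 1866 lower (36.8%, against 34.4%). Of the peaks called higher, 1489 were called in both treatments, and of those called lower 1683, with none called in opposite directions. In all 6 replicates 1705 of the 5072 tested peaks lay above 0 and 1873 below it. These counts were not taken over all peaks, so they do not set coding-sequence peaks apart.

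For the change of the ratio between treatments edgeR called 0 of 5072 coding-sequence peaks, as of all peaks (0%), and 244 (4.81%, against 4.46% of all peaks) had an unadjusted p under 0.05. DESeq2 and limma-voom also called none, with 241 and 149 peaks under that p. The median 95% half-width of the change was 0.62 on the log2 scale. At a typical peak a change within it could not be told from 0. This half-width is not adjusted for the number of peaks tested, so larger changes could also go uncalled. In simulated data, 200 peaks with a mean of at least 5 CPM were changed. There edgeR recovered 10.5% of 1.5-fold and 54.5% of 2-fold changes of the ratio. The authors' deposited table likewise holds 0 coding-sequence peaks with an adjusted p under 0.05 and 133 (2.57%) with a p under 0.05, against 2.67% of all peaks.

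The peak with the smallest p for the change was on RXRB, a retinoid X receptor gene, at 25238445 to 25240333 of chromosome 7. It had 5.13, 5.39 and 5.36 CPM in labelled input and 19.7, 20.6 and 17.9 CPM in labelled IP of CON, and 11.8, 8.42 and 5.49 CPM against 13.1, 11.2 and 14.2 CPM in OAA. All 3 OAA libraries lay above the CON ones in labelled input and below them in labelled IP, a change of 1.30 ± 0.32 that did not pass (edgeR adjusted p = 0.999). MACC1, a regulator of MET, had 25.3, 25.5 and 29.1 CPM against 4.03, 5.80 and 4.11 CPM in CON and 19.6, 16.0 and 24.5 CPM against 8.31, 7.72 and 7.29 CPM in OAA, a change of -1.14 ± 0.30 (edgeR adjusted p = 0.999). The other peaks with the smallest p lay on PROB1, POM121, WDR24, SCAP, ITPKB, SYNPO, TRIOBP and WNT4. For TRIOBP and WNT4 no change is given, since TRIOBP had no labelled IP read in CON and WNT4 none in OAA.

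In the libraries labelled input, OAA against CON gave 0 called coding-sequence peaks by edgeR, while 3 of all 24145 peaks were called (0.0124%), and 302 (5.95%, against 5.6% of all peaks) had an unadjusted p under 0.05. The CPM of the 2 treatments did not overlap in 555 of the 5072 tested peaks (10.9%, the same share as of all tested peaks). The median 95% half-width was 0.40. DESeq2 called 1 peak, and limma-voom none with 531 under an unadjusted p of 0.05.

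The peak DESeq2 called lies on POM121, which anchors nuclear pores in the membrane, at 10629471 to 10629570 of chromosome 3. Labelled input measured 3.22, 4.24 and 5.07 CPM in CON and 1.35, 1.91 and 1.72 CPM in OAA, with no overlap. Labelled IP measured 10.1, 10.8 and 6.77 CPM and 12.3, 9.35 and 7.50 CPM, with overlap. The log2 difference in labelled input was -1.33 ± 0.29 (edgeR adjusted p = 0.288), and DESeq2 gave -1.35 with an adjusted p of 0.0269. POM121 has a near-identical copy in the human genome, and sharing of its reads in the pig was not tested.

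Several further peaks had small p in labelled input without passing. SCAP, which escorts the SREBP transcription factors to the Golgi, had 9.36, 10.2 and 9.94 CPM in CON and 6.73, 4.38 and 6.40 CPM in OAA (-0.75 ± 0.18, edgeR adjusted p = 0.339). AKT2, a kinase of insulin signalling, had 7.80, 5.86 and 7.68 CPM and 9.42, 12.4 and 14.6 CPM (0.76 ± 0.18, edgeR adjusted p = 0.316). DDX54, a nucleolar RNA helicase gene, had 49.6, 49.7 and 56.8 CPM and 71.5, 61.2 and 71.8 CPM (0.39 ± 0.088, edgeR adjusted p = 0.308). None of these 3 peaks overlapped between treatments in labelled input, which is no further support, since they were chosen for a small p. The others were on GSPT2, WDR24, env, CAMK2G, EIF4G1 and ADAMTS5, with log2 differences from -0.77 to 2.29. The largest, on ADAMTS5 (2.29), GSPT2 (2.08) and CAMK2G (1.86), rest on few reads. These peaks held 19, 24 and 38 labelled input reads over the 3 CON libraries.

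In the libraries labelled IP, edgeR called 0 coding-sequence peaks and 0% of all peaks, and 209 (4.12%, against 4.32%) had an unadjusted p under 0.05, with 216 by DESeq2 and 61 by limma-voom, which also called none. CDADC1, a deaminase gene with a peak of high counts, had 41.2, 44.2 and 39.6 CPM in CON and 32.9, 32.9 and 30.0 CPM in OAA (-0.39 ± 0.10, edgeR adjusted p = 1). TUBB2B, a beta tubulin gene, had 221, 200 and 212 CPM and 241, 285 and 263 CPM (0.32 ± 0.088, edgeR adjusted p = 1). The treatments did not overlap at either peak, and neither passed the test. Both were chosen for a small p in this comparison, so the lack of overlap is no further support. In labelled IP the treatments did not overlap at 9.31% of tested coding-sequence peaks, a share not taken over all peaks.

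Expression of the genes that hold coding-sequence peaks did not pass either. Of 2976 genes, 2595 were tested by limma on log2(FPKM + 1), a scale that understates changes of low genes, 0 were called, as of all 10763 genes tested (0%), and 57 (2.20%, against 3.31% of all genes) had an unadjusted p under 0.05. Without OAA replicate 3 of the libraries labelled IP, 362 of 2592 genes had such a p, still with 0 called and a smallest limma adjusted p of 0.107. In the peak counts that library differed more from replicates 1 and 2 (chi-square per degree of freedom 4.52 and 3.80) than these did from each other (2.08), and its part in the expression result was not tested. DHDH, a dihydrodiol dehydrogenase gene, had 24.2, 21.8 and 21.6 FPKM in CON and 28.1, 30.3 and 26.03 FPKM in OAA, a difference of 0.31 ± 0.073 on that scale. TRIM2, a ubiquitin ligase gene, had 3.73, 4.89 and 3.82 FPKM and 2.79, 2.73 and 2.94 FPKM (-0.42 ± 0.10), and EHHADH, of peroxisomal fatty acid oxidation, 90.2, 91.7 and 93.0 FPKM and 80.0, 83.1 and 78.2 FPKM (-0.19 ± 0.047). The treatments did not overlap at these 3 genes, but the genes were chosen for a small p in this same comparison. The lack of overlap is thus no further support. The smallest limma adjusted p among genes with a coding-sequence peak was 1.00.

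**Figure D5:**
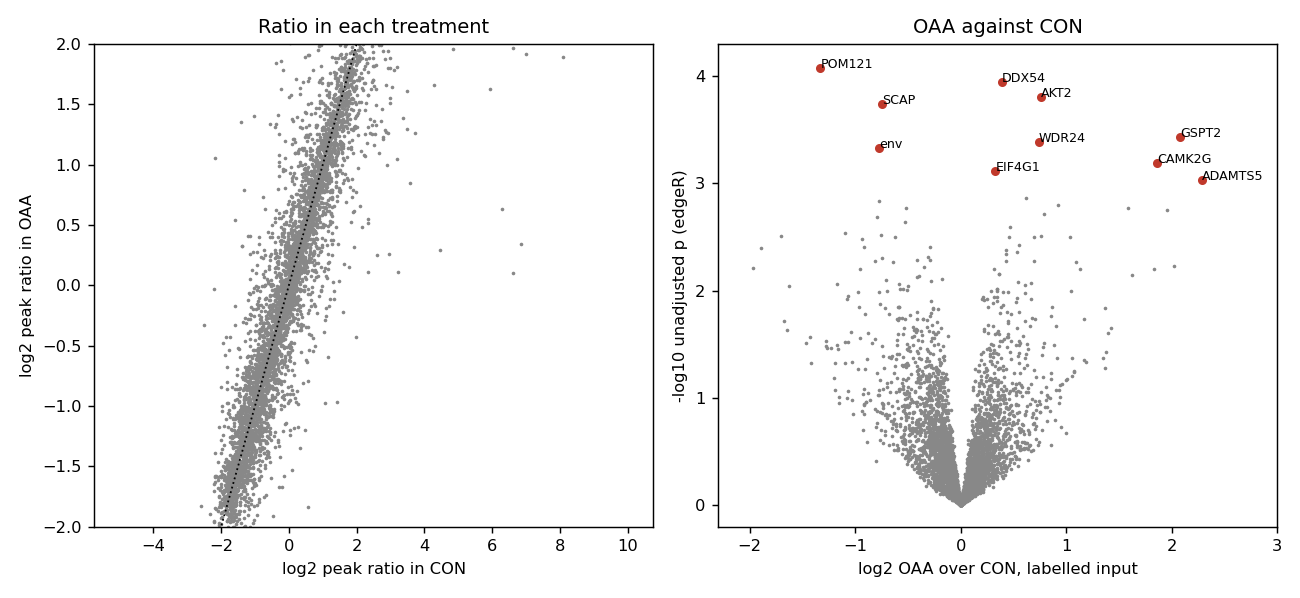
Left, log2 peak ratio of tested coding-sequence peaks in OAA against CON, with the line of equality dotted. The vertical axis is cut, so peaks with the highest and lowest ratios in OAA are not drawn, and most of the drawn points follow the line. Right, log2 OAA over CON in labelled input against -log10 of the unadjusted edgeR p, with the 10 peaks of smallest p in red and POM121 at the top (-1.33).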

How the data were processed

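MeRIP-seq libraries of IPEC-J2 cells were used, 3 per group in 4 groups named after their titles. Bowtie2 and HISAT2 were used per the submitters' processing notes, and the sources used here give neither their versions and roles nor a genome build. The authors deposited read counts per merged peak and library, with log2 ratios, a p-value and adjusted p-value, a peak score and a −log10 column per peak, and FPKM per gene. Of 29011 peak entries, each peak was used once, and starts, 0-based in the table, are printed 1-based. Symbols came from the reference table for 4775 of 5185 peaks and otherwise from the deposited table. No sequence source was at hand, so no motif was searched.

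Counts were fitted jointly over all 12 libraries with edgeR 4.0.16 (TMM, default expression filter, quasi-likelihood F test) in R 4.3.3. FPKM were tested with limma 3.58.1 on log2(FPKM + 1), keeping genes that reached 1 FPKM in 3 libraries. DESeq2 1.42.0, limma-voom, other scalings, no filter, a replicate block and leaving out each library were alternatives. The within-gene comparison was an edgeR fit of summed counts with the library as a factor, and its model was added after the data were seen. The statistics were tested on simulated data.

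Named peaks were the 10 highest and 10 lowest ratios in CON among called peaks with a symbol, at least 5 CPM in the higher group, more than 5 reads in each group and no overlap (1 per gene), the 10 smallest p for each OAA comparison, up to 3 per gene list, the 5 genes with the most peaks, 5 genes per direction within genes, and YTHDF2, PSMD3, METTL3, METTL14, FTO and ALKBH5. The members and lists were chosen with earlier results of these data known. Replicates differed by more than sampling noise (chi-square per degree of freedom 2.08 to 9.70).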

Additional observations from a re-analysis of the deposited data

How the results depend on the processing

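The balance of calls and the median of coding-sequence ratios turned with the scaling. In CON, RLE size factors gave a median of 0.031 (1761 higher, 1728 lower) and DESeq2 0.033 (1745 and 1730), against -0.056 (1651 and 1830). In OAA both gave a median of 0.036 against -0.042, with more peaks lower than higher in each (1732 and 1766, 1722 and 1768), and without OAA replicate 3 of labelled IP it was 0.020. Without that library, expression gave 362 of 2592 genes under an unadjusted p of 0.05 in place of 57 of 2595, with 0 called. Otherwise counts of calls stayed within 1.5 times of those reported, and differences between position medians within the replicate SD, under the alternatives run, with these exceptions. DESeq2 called 1 coding-sequence peak for OAA in labelled input, where edgeR called 0. For peaks reaching 5 CPM, the median differences were -0.53 (stop codon) and 0.31 (3' UTR). Against 3' UTR peaks only, within-gene calls were 216 higher and 216 lower of 761 genes, fewer than with stop codon peaks. Leaving out 1 library gave 3243 to 3311 called peaks in CON (1547 to 1592 higher, 1666 to 1764 lower), 3254 to 3365 in OAA, 403 to 433 higher and 731 to 770 lower genes within genes, and 0 for each OAA comparison. With the replicate block, the ratio in CON gave 3472 calls against 3481, and OAA against CON gave 0. Between the labels of a treatment, deviations from the group means of same-numbered libraries correlated at -0.014 to 0.056 (n = 6). These values do not settle whether the libraries were paired. Of the named peaks and genes, 1091 values under alternatives kept direction and call, and 1, POM121 by DESeq2, passed the threshold in place of missing it. Ratios rest on fewer reads in labelled IP than in labelled input. For OAA against CON the median 95% half-width was 0.47 in labelled IP and 0.40 in labelled input. The part of labelled IP depth in the precision of the ratios was not tested.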
